A study of Mus musculus with 12 samples.

Results

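The 9 genes described here encode core machinery by which mitochondria fuse, divide and are removed: Mfn1, Mfn2 and Opa1 for fusion, Dnm1l, Fis1 and Mff for fission, and Pink1, Bnip3l and Fundc1 for mitophagy. They were taken by gene name from a deposited table of 43346 genes of mouse kidney RNA, and all 9 were tested. The libraries were 6 from sham kidneys (samples 1 to 6) and 6 from HP-AKI kidneys (samples 7, 8, 9, 11, 12 and 13), each taken at day 1. AKI is acute kidney injury, and what HP stands for is not spelled out in the labels. The tissue is given only as kidney in both groups. Strain, genotype, sex and age, the way the injury was made and whether each library came from its own animal are not given in the sources used here, and p-values below therefore speak to spread among these libraries alone, which could be technical.

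Mitochondria form a network whose shape is set by opposing dynamin-type GTPases. MFN1 and MFN2 join outer membranes and OPA1 joins inner membranes and keeps the cristae in shape, whereas DRP1, the product of Dnm1l, is recruited from the cytosol by receptors such as MFF and FIS1 and constricts the organelle. Damaged mitochondria can be marked for removal by the kinase PINK1, or tethered directly to the autophagosome by membrane receptors such as BNIP3L (NIX) and FUNDC1. The proximal tubule is rich in mitochondria, and mitochondrial fragmentation is a known feature of tubular injury.

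At day 1 the transcripts of all 3 fusion genes and all 3 mitophagy genes were lower in HP-AKI, while those of the 3 fission genes went 3 ways. Dnm1l rose, Fis1 fell and Mff did not pass. In counts, 7 members fell, 1 rose and 1 missed the threshold of 0.05 (p from the quasi-likelihood test of edgeR, adjusted by Benjamini-Hochberg over 17470 tested genes). Across all tested genes 72.8% passed, 35.2% lower and 37.7% higher, so a call by itself sets no gene apart in these data. The median log2 fold change was -0.56 over the 9 members and 0.04 over all tested genes. None of the 9 changed by 2-fold or more, whereas 33.1% of all tested genes passed with at least that change. The groups did not overlap in 5 members, all of them lower in HP-AKI (Mfn1, Mfn2, Opa1, Bnip3l and Fundc1), whereas 52.4% of all tested genes did not overlap, 25.8% lower.

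Upstream stretches of 3 members are shown because Opa1 fell as far as any member, Dnm1l was the only member to rise, and Opa1 and Pink1 were the only members with a match to the 10-base motif of NRF1, nuclear respiratory factor 1, a regulator of nuclear genes for mitochondrial proteins. Each is the 250 bases before a RefSeq start site on GRCm38.p6, written 5′ to 3′ on the strand of the gene, and capitals mark the NRF1 motif, searched on both strands. RefSeq lists another Dnm1l start, with upstream bases at chr16:16358576-16358825 (70.8% GC, against 47.6% in the stretch shown). Neither Dnm1l start was matched to a GENCODE transcript, and neither stretch held the NRF1 motif.
Opa1, plus strand, chr16:29579084-29579333: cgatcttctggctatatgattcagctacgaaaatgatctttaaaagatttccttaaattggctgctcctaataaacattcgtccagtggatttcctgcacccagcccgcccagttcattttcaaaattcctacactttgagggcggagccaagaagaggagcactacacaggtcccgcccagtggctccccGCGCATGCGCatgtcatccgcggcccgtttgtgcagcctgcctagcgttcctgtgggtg
Pink1, minus strand, chr4:138326297-138326546: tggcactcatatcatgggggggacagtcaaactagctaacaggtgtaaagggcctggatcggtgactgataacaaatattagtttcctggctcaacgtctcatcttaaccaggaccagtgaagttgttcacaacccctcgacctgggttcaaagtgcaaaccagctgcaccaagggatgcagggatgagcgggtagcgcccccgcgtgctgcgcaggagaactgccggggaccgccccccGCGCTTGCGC
Dnm1l, minus strand, chr16:16359032-16359281: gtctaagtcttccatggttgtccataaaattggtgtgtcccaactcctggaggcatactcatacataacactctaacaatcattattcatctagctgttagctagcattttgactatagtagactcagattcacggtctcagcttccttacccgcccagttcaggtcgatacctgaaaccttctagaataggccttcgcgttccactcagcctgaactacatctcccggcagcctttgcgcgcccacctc

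The motif began 59 bases before the start in Opa1 and 10 bases before it in Pink1, where it lies within the ends that the deposited table gives for the gene. It was present in 3.74% of all 32851 upstream stretches of this length, and in at least 1 stretch of 4.23% of the 27025 genes they belong to. Of the 8 members in the RefSeq table, 2 held it, and Bnip3l had no entry. The other sets of letters were searched on both strands. CACGTG (6.02% of all stretches, 6.86% of genes) and TGACNNNGC, the core of the antioxidant response element (10.2% of stretches, 11.5% of genes), had no match in any of the 8 members. ACGTG, the core of the hypoxia response element, which also lies inside CACGTG, was found in 16.6% of all stretches and 18.5% of genes, and among the members only in Mfn2, at 1 of its 3 listed starts. A match is a description of these letters and was not tested for binding.

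Depth was 31624522 to 41951129 gene counts a library. The rarest member, Fundc1, had 11179 counts over sham and 6541 over HP-AKI, so counting error was small for every member. Sham 1, sham 2 and HP-AKI 8 lay lowest along GC content. The median of genes in the top 20% by transcript GC minus that of genes in the bottom 20%, each taken relative to the library's own group mean, was -0.50, -0.72 and -0.66 on the log2 scale in these 3, and -0.26 to 0.50 in the other 9. Results are therefore also given without the 3 and with offsets for GC content, the offsets added after the data were seen. The 3 were left out because they lay lowest in these same data, so a narrower spread without them follows in part from that choice. HP-AKI 13, at 0.50, lay about as far to the other side as sham 1 and was kept. Leaving out the 3 therefore did not even out GC content among the libraries. Kidney markers were present in both groups. All 7 proximal tubule markers fell (log2 fold changes of -3.26 to -1.22), with a summed level of 8973 to 11277 CPM (counts scaled to library size with TMM factors) in sham and 1816 to 3006 in HP-AKI. Of 5 markers of the loop of Henle and distal tubule 4 fell (-2.86 to -1.48). Umod rose by 0.25, close to the threshold (adjusted p 0.0492) and with overlapping groups. The 5 summed to 7832 to 8410 CPM in sham and 4509 to 6745 CPM in HP-AKI. Of 6 collecting duct markers 4 fell and 2 did not pass, with a sum of 328 to 369 and 213 to 251 CPM. In bulk tissue, fewer cells of a type and less RNA per cell cannot be told apart, and the part of these tubule changes in the falls below was not tested.

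Mfn1, the outer-membrane fusion GTPase that tethers neighbouring mitochondria, had sham values of 144 to 197 CPM (median 153) and HP-AKI values of 110 to 137 CPM (median 125). The groups did not overlap, and sham 1 and sham 2 were the highest of the sham libraries. The log2 fold change was -0.37 ± 0.09 (SE), adjusted p 0.00201, the smallest fall among the fusion genes. Mfn2, its paralog, which also ties mitochondria to the endoplasmic reticulum, lay at 143 to 169 CPM in sham (median 161) and at 86.6 to 113 CPM in HP-AKI (median 103). Again no HP-AKI library reached the sham range, but here sham 1 and sham 2 were the lowest of their group and HP-AKI 8 the lowest of all. Mfn2 fell by 0.63 ± 0.08 (SE) on the log2 scale, adjusted p 3.83e-06.

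Opa1, the inner-membrane fusion GTPase, fell as far as any of the 9, level with Fundc1. Its sham values were 195 to 255 CPM (median 208) and its HP-AKI values 112 to 135 CPM (median 126), a wide gap with no overlap. The mean was 1.74-fold lower in HP-AKI, with a log2 fold change of -0.80 ± 0.08 (SE) and an adjusted p of 3.52e-07. Without sham 1, sham 2 and HP-AKI 8 the log2 fold changes of Mfn1, Mfn2 and Opa1 were -0.31, -0.69 and -0.74, and with GC offsets -0.37, -0.70 and -0.69, all past the threshold.

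**Figure D1:**
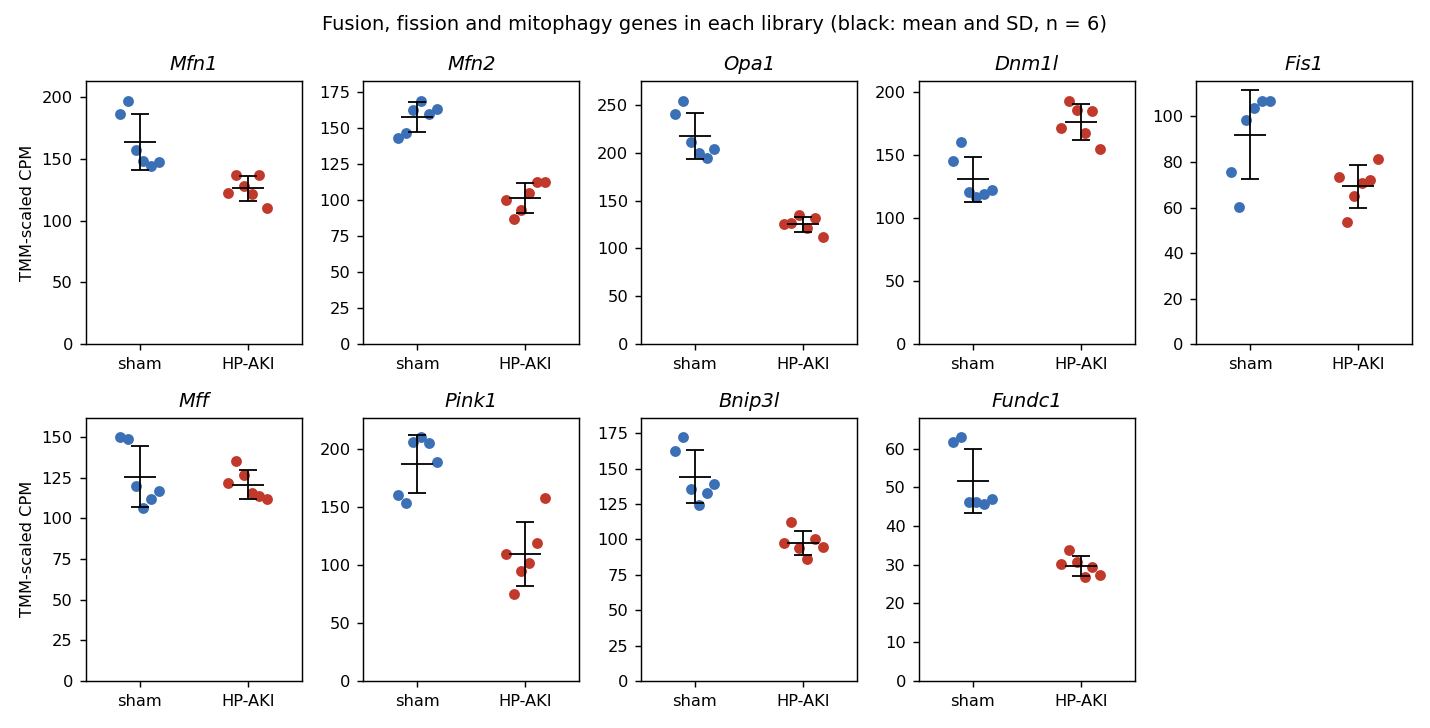
TMM-scaled CPM (y axis, from 0) of each of the 9 genes in 6 sham (blue) and 6 HP-AKI (red) libraries, with the mean and SD in black. Opa1 drops from 195 to 255 CPM in sham to 112 to 135 CPM in HP-AKI, Dnm1l is the only gene whose HP-AKI mean lies above sham, and Mff overlaps throughout.

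Dnm1l encodes DRP1, the GTPase that constricts and divides mitochondria. It was the only member to rise, from 117 to 161 CPM in sham (median 122) to 155 to 193 CPM in HP-AKI (median 178). The groups overlapped at a single point, since sham 2, at 161 CPM, lay above HP-AKI 13, at 155 CPM. The log2 fold change was 0.43 ± 0.09 (SE), adjusted p 6.10e-04, and 0.49 without sham 1, sham 2 and HP-AKI 8. Across all tested genes 66.0% had a lower log2 fold change than Dnm1l.

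Fis1, an outer-membrane protein that binds fission factors, had the widest spread of the 9 in sham on the log2 scale (SD 0.34). Its sham values ran from 60.3 to 107 CPM (median 101) and its HP-AKI values from 53.6 to 81.4 CPM (median 71.4), with overlap. Sham 2 and sham 1 held the lowest sham values, 60.3 and 75.5 CPM, while the other 4 sham libraries lay at 98.3 to 107 CPM, above every HP-AKI library. Fis1 fell by 0.41 ± 0.14 (SE) on the log2 scale, adjusted p 0.0162, and by 0.56 without sham 1, sham 2 and HP-AKI 8 (adjusted p 4.43e-06). Scaling by library size alone ended the call (-0.30, adjusted p 0.0932).

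Mff, the main membrane receptor of DRP1, lay at 107 to 150 CPM in sham (median 118) and 112 to 135 CPM in HP-AKI (median 119). The ranges were nested, with HP-AKI inside sham. Its log2 fold change was -0.06 ± 0.09 (SE), adjusted p 0.604, and it did not pass under any of 21 alternatives, over which it ran from -0.11 to 0.07.

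Pink1, the kinase that accumulates on depolarised mitochondria and starts their removal, spread widely in HP-AKI. Sham libraries held 153 to 210 CPM (median 196) and HP-AKI libraries 75.2 to 157 CPM (median 105). The overlap came from HP-AKI 13, at 157 CPM, which lay above sham 2, at 153 CPM, and HP-AKI 8 was the lowest. The log2 fold change was -0.77 ± 0.15 (SE), adjusted p 2.17e-04. It was -0.84 without sham 1, sham 2 and HP-AKI 8, and -0.92 ± 0.07 (SE) with GC offsets.

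Bnip3l encodes NIX, a receptor that clears mitochondria from maturing red cells and under low oxygen. Its sham values were 124 to 172 CPM (median 137) and its HP-AKI values 86.3 to 112 CPM (median 96.2), without overlap. It fell by 0.56 ± 0.09 (SE) on the log2 scale, adjusted p 4.77e-05. None of the 5 tested red blood cell markers passed, and their summed level was 102 to 1002 CPM in sham and 137 to 352 CPM in HP-AKI, overlapping ranges. All 5 had negative log2 fold changes, -0.70 to -0.38, with wide SEs of 0.45 to 0.52. In sham, Hbb-bs had a median of 83.8 CPM and a highest value of 514 CPM. The part of red cells in the fall of Bnip3l was not tested. Fundc1, an outer-membrane receptor of hypoxia-induced mitophagy, lay at 45.8 to 62.9 CPM in sham (median 46.5) and 26.9 to 33.9 CPM in HP-AKI (median 29.8). No HP-AKI library came near sham, and the log2 fold change was -0.80 ± 0.10 (SE), adjusted p 5.06e-06.

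**Figure D2:**
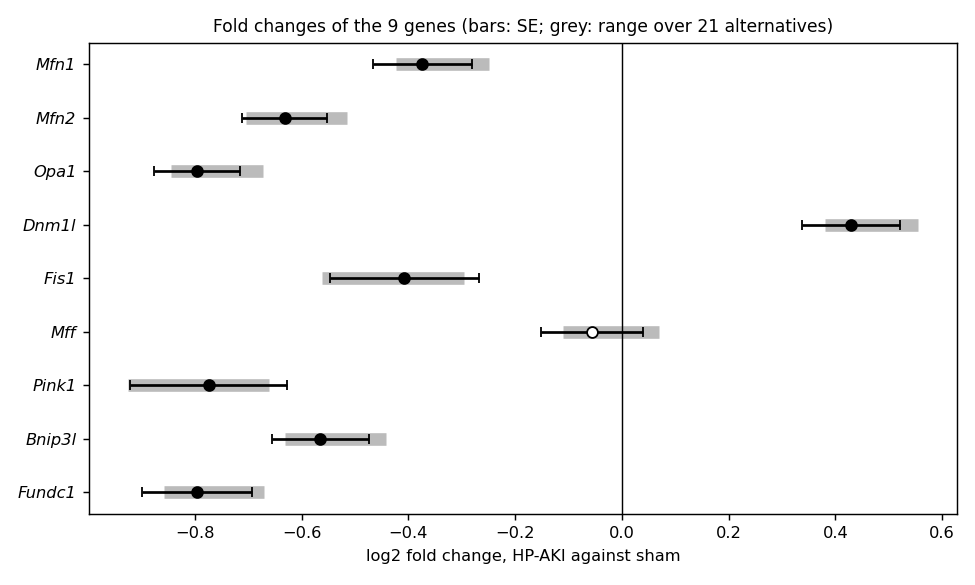
Log2 fold change of HP-AKI against sham (x axis) for each gene, with its SE as black bars and the range over 21 processing alternatives in grey; a filled point passed the test. The 7 filled points left of 0 lie between -0.80 and -0.37, Dnm1l lies at 0.43 and Mff at -0.06.

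Levels can be set side by side only per length, here as CPM per kilobase of the listed gene length. In sham the order by mean was Pink1 (69.9 ± 9.24, SD, n = 6), Fis1 (53.7 ± 11.4), Bnip3l (37.4 ± 4.84), Dnm1l (31.9 ± 4.36), Mfn2 (30.3 ± 1.99), Opa1 (27.6 ± 3.06), Mfn1 (26.7 ± 3.72), Fundc1 (21.9 ± 3.54) and Mff (12.9 ± 1.93). The ranges of neighbours in this order overlapped except between Fundc1 and Mff. Dnm1l lay above Mfn2 in 2 of 6 sham libraries. In HP-AKI, Dnm1l had the highest mean at 43.0 ± 3.49 (SD, n = 6), followed by Pink1 (40.9 ± 10.4) and Fis1 (40.5 ± 5.46), and these 3 were not separated by their ranges. Fis1 lay above Bnip3l (25.3 ± 2.24) without overlap. Mfn1 (20.6 ± 1.67) and Mfn2 (19.6 ± 2.04) followed, then Opa1 (15.9 ± 1.00), Fundc1 (12.6 ± 1.10) and Mff (12.4 ± 0.903). Dnm1l thus stood behind Pink1, Fis1 and Bnip3l in sham and at the head of the order in HP-AKI. The listed length counts every annotated exon, so a gene with long rarely used exons is placed too low.

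The spread of the members within a group lined up with their base composition. The 6 members with transcripts under 47% GC (Dnm1l, Fundc1, Mfn1, Mff, Opa1 and Bnip3l, 40.7% to 46.3%) were all above their group mean in sham 1, in sham 2 and in HP-AKI 8, by 0.15 to 0.27, 0.23 to 0.30 and 0.02 to 0.21 on the log2 scale. Fis1, Mfn2 and Pink1, at 54.2% to 57.2% GC, were all below it in the same 3 libraries, by as far as -0.58 (Fis1 in sham 2) and -0.50 (Pink1 in HP-AKI 8). HP-AKI 13, with the highest GC-related value of its group (0.50), held the highest HP-AKI level of Pink1 and Fis1 and the lowest of Dnm1l, Mfn1 and Opa1. With offsets for GC content the SE shrank in all 9 members, for example from 0.15 to 0.07 for Pink1 and from 0.14 to 0.08 for Fis1. No member's call changed. The offsets were fitted to these same counts, so the smaller SE follows in part from that choice. They were taken from deviations from the mean of all 12 libraries, so a GC-linked difference between the groups could be removed as well.

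**Figure D3:**
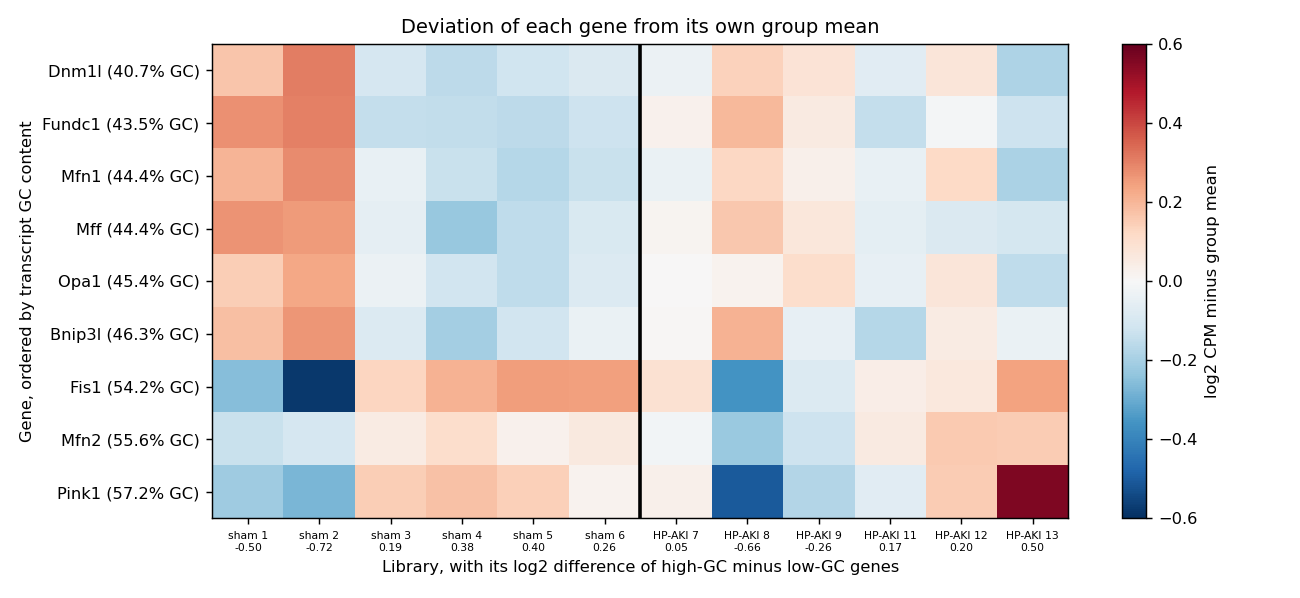
Deviation of log2 CPM from the mean of its own group (colour, log2) for each gene (rows, ordered by transcript GC content) in each library (columns, with the log2 difference of high-GC minus low-GC genes of that library under its name); the black line parts sham from HP-AKI. The 6 rows at the top are red and Fis1, Mfn2 and Pink1 blue in sham 1, sham 2 and HP-AKI 8, except Opa1 in HP-AKI 8 (0.02), which is near white.

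Pairs of related genes were compared as count ratios within each library, which removes the scaling between libraries but not the influence of GC content, with an exact two-sided permutation test over 924 splits and adjustment over the 3 pairs tested, 2 of which are given. The log2 ratio of Mfn1 to Mfn2 was 0.05 ± 0.28 (SD, n = 6) in sham and 0.31 ± 0.23 (SD, n = 6) in HP-AKI, a difference of 0.27 that did not pass (exact permutation p 0.115, adjusted p 0.172). Sham 1 and sham 2 held ratios of 0.38 and 0.43 while the other 4 sham libraries lay at -0.19 to -0.05. Without these 2 and HP-AKI 8 the difference was 0.38, with an adjusted p of 0.0476 from fewer splits. So the unequal falls of the paralogs, -0.37 and -0.63, were not shown to differ with all libraries in.

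Bnip3, the hypoxia-induced paralog of Bnip3l, averaged 207 ± 28.5 CPM in sham and 118 ± 20.4 CPM in HP-AKI (SD, n = 6 each), a log2 fold change of -0.81 ± 0.12 (SE), adjusted p 1.72e-05. The log2 ratio of Bnip3l to Bnip3 was tightly held in sham, at -0.52 ± 0.03 (SD, n = 6), and higher and more spread in HP-AKI, at -0.26 ± 0.18 (SD, n = 6). The difference of 0.25 had an exact permutation p of 0.0130, adjusted p 0.0390, with 5 of 6 HP-AKI libraries above all sham libraries and HP-AKI 12 (-0.56) within them. The call was lost without sham 1 (adjusted p 0.0584), sham 3 (0.0519) or HP-AKI 7 (0.0519), where the difference stayed at 0.24, 0.25 and 0.21, and without sham 1, sham 2 and HP-AKI 8 together (0.25, adjusted p 0.0833).

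**Figure D4:**
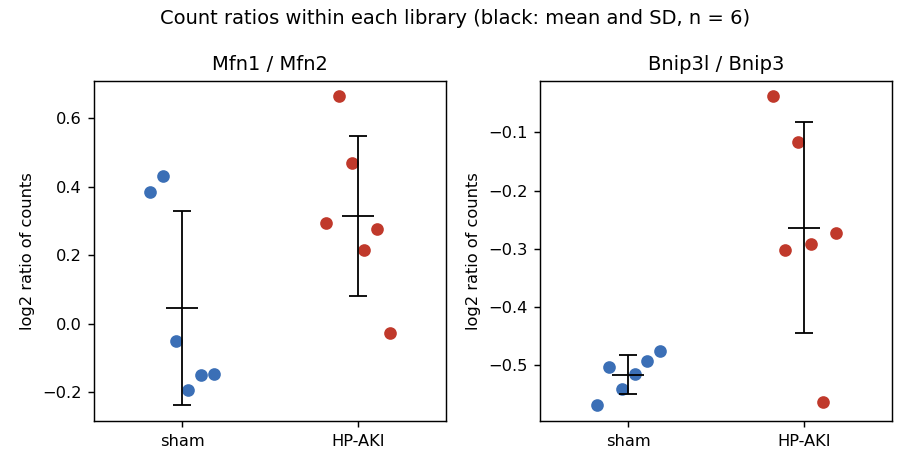
Log2 ratio of counts within each library (y axis, not from 0) for Mfn1 to Mfn2 and Bnip3l to Bnip3 in sham (blue) and HP-AKI (red), with mean and SD in black. For Bnip3l to Bnip3, 5 of 6 HP-AKI libraries lie above the sham range of -0.57 to -0.48, and the groups of the other ratio overlap.

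Around the fusion genes, the listed genes of OPA1 processing, cristae structure and outer-membrane fusion were mostly lower. Of 20 tested, 15 fell, 1 rose and 4 did not pass, with a median of -0.67. Over all tested genes 35.2% were lower and 37.7% higher. Oma1, the stress-activated protease that cleaves OPA1, fell from 29.1 ± 1.05 to 13.3 ± 1.67 CPM (mean ± SD, 6 libraries each), a log2 fold change of -1.13 ± 0.09 (SE). Yme1l1, the protease that cleaves OPA1 at another site in healthy mitochondria, did not pass (-0.10). The largest falls were those of Apoo, a subunit of the cristae-organising MICOS complex (-1.51 ± 0.09, SE), and Phb, prohibitin, an inner-membrane scaffold (-1.40 ± 0.09). Micos13, another MICOS subunit and the highest of the list per length, fell from 116 ± 25.4 to 62.7 ± 13.6 CPM. Parl, the rhomboid protease that cleaves imported PINK1, was the member that rose, from 36.2 ± 3.41 to 44.4 ± 3.94 CPM (0.29 ± 0.08, SE).

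The regulators of fission were split: of 17 tested, 6 rose, 5 fell and 6 did not pass, with a median of 0.13. Over all tested genes 37.7% were higher and 35.2% lower, with a median of 0.04, so these counts lay near the all-gene shares. The median of the list ran from 0.05 without sham 1, sham 2 and HP-AKI 8 to 0.26 with library size only. It was 0.09 without HP-AKI 12. Mtfr2, a mitochondrial fission regulator of dividing cells, rose from 0.781 ± 0.212 to 6.44 ± 1.84 CPM (mean ± SD, 6 libraries each), an 8.24-fold difference. Inf2, the formin that assembles actin at fission sites, rose from 4.40 ± 1.33 to 18.3 ± 4.93 CPM. Pgam5, a mitochondrial phosphatase that acts on DRP1 and FUNDC1, rose by 1.01 ± 0.07 (SE) on the log2 scale, Mief1, an adaptor that recruits DRP1, by 0.79 ± 0.06, and Dnm2, a dynamin of membrane scission, by 0.55 ± 0.10. Senp5 also rose, by 0.59 ± 0.10. Pgam5, Mief1, Dnm2, Senp5 and Yme1l1 were named after their values were seen, as were Ppp2r2b, Mtfr1 and Mtfr1l below. Against them, Mtfp1, an inner-membrane protein of the fission machinery, fell from 11.8 ± 1.74 to 1.80 ± 0.245 CPM, 6.57-fold, the largest fall of any list gene here apart from markers. Akap1, which anchors protein kinase A to mitochondria, where the kinase inhibits DRP1, fell by 1.26 ± 0.12 (SE). Ppp2r2b (-0.98 ± 0.19, SE), Mtfr1 (-0.63 ± 0.08) and Mtfr1l (-0.41 ± 0.06) fell as well. Marchf5, a ubiquitin ligase of the outer membrane and the highest of this list per length when both groups are averaged, did not pass (0.13) except when scaled by library size alone (0.26).

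Mitophagy receptors and adaptors also went both ways, with 9 of 18 tested higher, 7 lower and 2 not passing. The shares over all tested genes were 37.7% higher and 35.2% lower. The median of the list was 0.05. That median had no steady sign: it ran from -0.07 with no filter to 0.17 with library size only, and leaving out HP-AKI 7, 12 or 13 brought it to 0.03, 0.02 and 0.03. Sqstm1, the ubiquitin-binding cargo adaptor p62 and a known NRF2 target, rose from 297 ± 46.4 to 2446 ± 423 CPM (mean ± SD, 6 libraries each), a log2 fold change of 3.04 ± 0.14 (SE) and the largest rise of this list. Optn, optineurin, an adaptor of ubiquitin-dependent mitophagy, rose from 24.1 ± 1.77 to 51.0 ± 1.10 CPM, and Tbk1, the kinase that activates it and was named after its value was seen, from 47.2 ± 2.04 to 78.8 ± 4.29 CPM. The falls included Nipsnap1, which marks damaged mitochondria (-1.75 ± 0.07, SE), Bnip3, and Gabarapl1, an ATG8-family protein and the highest of the list per length in sham, which went from 1027 ± 84.1 to 601 ± 23.0 CPM. Of the 9 rises, 4 were unstable: those of Tax1bp1 (0.21), Gabarapl2 (0.14), Ulk1 (0.43) and Ambra1 (0.20) passed in 7, 6, 13 and 9 of 21 alternatives. Without HP-AKI 7 the list had 5 rises.

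Among regulators and substrates of the PINK1 pathway, 11 of 19 tested fell, 2 rose and 6 did not pass, with a median of -0.32. Over all tested genes 35.2% were lower and 37.7% higher. The falls numbered 8 with library size only and 9 to 11 when leaving out each library. Those of Bag4 (-0.33) and Rhot1 (-0.22) did not pass in 10 and 4 of 21 alternatives. Cisd1, the outer-membrane iron-sulfur protein mitoNEET, fell from 167 ± 8.58 to 68.7 ± 5.42 CPM (mean ± SD, 6 libraries each), and Vdac1, the main outer-membrane channel and the highest of the list per length, from 776 ± 29.0 to 387 ± 20.1 CPM. Hk2, the inducible hexokinase that binds mitochondria, rose from 1.34 ± 0.353 to 10.4 ± 3.03 CPM, and Bag5, a co-chaperone of HSP70, from 19.5 ± 1.34 to 28.1 ± 2.09 CPM. With GC offsets the log2 fold change of Bag5 was 0.29, against 0.53 without them. Usp30, a mitochondrial deubiquitinase, had a log2 fold change of 0.34 that missed the threshold, although 3 of 21 alternatives called it, among them the omission of HP-AKI 8 (named after its value was seen).

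For scale, 16 nuclear genes of general mitochondrial content (respiratory subunits, chaperones and import) had a median of -0.72. Of these, 13 were lower, 1 was higher and 2 did not pass, against 35.2% lower and 37.7% higher over all tested genes. Atp5b, the ATP synthase beta subunit and the highest of them per length, fell from 3248 ± 70.1 to 1809 ± 136 CPM (mean ± SD, 6 libraries each), a log2 fold change of -0.84 ± 0.07 (SE). Ndufs1, a complex I subunit, and Sdha, a complex II subunit, fell by 1.60 ± 0.10 and 1.23 ± 0.07. Timm23, a core import channel, was the member that rose (0.21 ± 0.09, adjusted p 0.0481), but in 13 of 21 alternatives it did not pass, 9 of them leaving out 1 library (sham 3, 4, 5 or 6 or HP-AKI 7, 8, 9, 11 or 13), over a range of 0.16 to 0.33. The 7 falling members, at -0.80 to -0.37, lay within the span of these genes, and whether they fell more or less than mitochondrial genes in general was not tested. All 37 mitochondrial-genome genes carry 0 counts, so nothing here measures mitochondrial DNA-encoded transcripts.

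**Figure D5:**
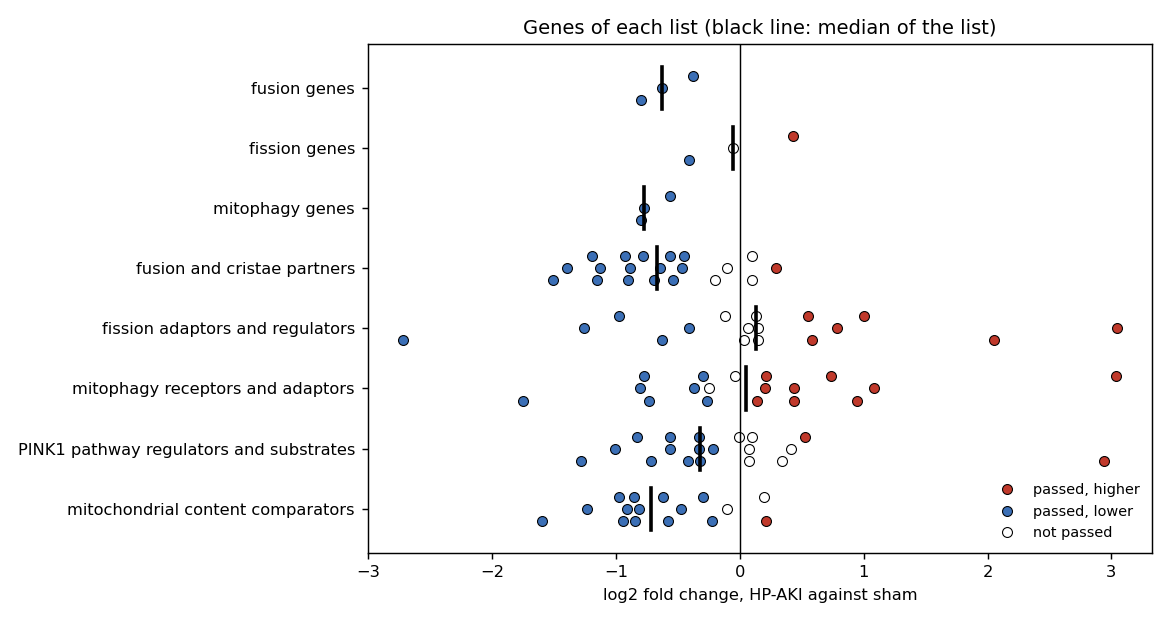
Log2 fold change (x axis) of every tested gene in the fusion, fission and mitophagy groups and the 5 related lists (rows); filled red and blue points passed as higher and lower, open points did not, and a black line marks each median. The fusion and mitophagy genes sit left of 0, as do 14 of the 16 content comparators, while fission regulators and mitophagy adaptors spread from -2.72 to 3.04.

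Genes with the pattern most like the member with the largest rise and the member with the largest fall (Opa1, just ahead of Fundc1) were taken by the root mean square difference of log2 CPM from the sham mean over the 12 libraries, among 11191 other protein-coding genes of at least 5 CPM. For Dnm1l these were Nckap1, a WAVE complex subunit of actin assembly (0.03), Asun, a subunit of the Integrator complex (0.04), and Tgoln1, a trans-Golgi membrane protein (0.04), against a median of 0.55 over all candidates. For Opa1 they were Oard1, an ADP-ribose hydrolase (0.04), Ndufaf1, a complex I assembly factor (0.05), and Myo6, a myosin of endocytosis (0.06), against a median of 0.72. Nckap1 rose from 359 ± 55.9 to 485 ± 48.0 CPM (mean ± SD, 6 libraries each) and Ndufaf1 fell from 49.2 ± 7.33 to 28.9 ± 2.35 CPM. These genes were picked for likeness in the same libraries. Their small distances and the direction and size of their changes follow from that choice.

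Markers of other cells moved in the same comparison. Of 4 podocyte markers 3 rose and Nphs1 fell, with a summed level of 434 to 583 CPM in sham and 562 to 786 CPM in HP-AKI. Of 8 leukocyte markers 4 rose and 3 fell, with a summed level of 37.0 to 47.8 CPM in sham and 68.3 to 212 CPM in HP-AKI, and none was at 0 in either group. The 4 endothelial markers summed to 357 to 409 CPM in sham and 390 to 620 CPM in HP-AKI, with 3 higher. The 5 fibroblast and pericyte markers summed to 296 to 346 and 427 to 552 CPM, with 3 higher. Among the latter, Dcn (0.29, adjusted p 0.0476) was close to the threshold and its groups overlapped. Of 6 skeletal muscle markers only Mylpf and Pvalb were tested, both lower, and Pvalb, which the distal tubule also expresses, made up most of a sum of 21.1 to 26.9 CPM in sham and 1.89 to 2.94 CPM in HP-AKI. Fat markers summed to 0.121 to 11.9 CPM in sham and 0.964 to 11.5 CPM in HP-AKI, and adrenal markers to 1.38 to 2.22 and 4.89 to 7.86 CPM. Star, the only adrenal marker tested, made up most of that sum, with means of 1.74 CPM in sham and 6.22 CPM in HP-AKI. Th was at 0 in sham with 1 count in HP-AKI, and Cyp11b1 at 0 in HP-AKI with 1 count in sham. The part of these cells in the members' changes was not tested.

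By place on GRCm38, as the table gives it, Mfn1 (ENSMUSG00000027668) lies on chromosome 3 from 32529465 to 32579239, Mfn2 (ENSMUSG00000029020) on chromosome 4 from 147873599 to 147904704 and Opa1 (ENSMUSG00000038084) on chromosome 16 from 29579334 to 29654884. Dnm1l (ENSMUSG00000022789) lies on chromosome 16 from 16312235 to 16359030, Fis1 (ENSMUSG00000019054) on chromosome 5 from 136953275 to 136966234 and Mff (ENSMUSG00000026150) on chromosome 1 from 82724890 to 82752394. Pink1 (ENSMUSG00000028756) lies on chromosome 4 from 138313409 to 138326307, Bnip3l (ENSMUSG00000022051) on chromosome 14 from 66985239 to 67008877 and Fundc1 (ENSMUSG00000025040) on chromosome X from 17556564 to 17572325. In the GENCODE vM21 annotation, exons of Mff overlap the antisense C430014B12Rik by 195 bases, exons of Dnm1l an antisense RNA by 243 bases, and Pink1 holds 2 microRNA genes. C430014B12Rik had 269 counts over all libraries against 53922 for Mff. Whether counting used strand is not given in the sources used here, so reads of Mff or Dnm1l and of the antisense RNA cannot be told apart where they overlap.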

How the data were processed

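Kidney RNA of 6 sham and 6 HP-AKI samples was analysed from a table of counts and RPKM values with 1 column of each per sample. Per the labels, libraries were made with a TruSeq v2 kit. GRCm38, TopHat2 2.1.0, featureCounts and edgeR appear in the submitters' processing notes, and roles, settings and filters are not given in the sources used here. Whole-number raw counts of each gene were deposited. The deposited RPKM values were scaled by the authors to gene length and to a total 2.98 to 3.47 times the sum of the counts, and served only for this check.

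The test was run in R 4.3.3 with edgeR 4.0.16 on counts after filterByExpr and TMM scaling, by a two-sided quasi-likelihood F-test with Benjamini-Hochberg adjustment over 17470 genes and a threshold of 0.05, without covariates. The SE is the log2 fold change divided by the square root of F. Log2 CPM used a prior count of 2, and ratios a pseudocount of 0.5. GC content is the mean over a gene's GENCODE vM21 transcripts. Promoters came from RefSeq on GRCm38.p6. Tables and figures used numpy 2.4.6, pandas 2.3.3, matplotlib 3.10.9 and Python 3.11.15.

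1 member of the gene list is not reported here. The members and lists were chosen with earlier results of these data known. Of 94 entries in the related lists, 88 matched by symbol and 6 by an older symbol. Named genes were the members, Bnip3, Sqstm1 and Oma1, the 2 largest called rises and falls of each list with a mean of at least 1 CPM, its highest member per length, and the nearest genes by pattern. Alternatives were RLE or upper-quartile factors, library size only, no filter, 1 CPM in 6 libraries, DESeq2 1.42.0, limma-voom (limma 3.58.1), each library left out, 3 libraries left out together and GC offsets over 20 bins.

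On simulated counts 16712 genes were tested. For true log2 changes of 0.5, 1 and 2, edgeR called 43.3%, 84.4% and 100% in the right direction. Of its calls 3.47% were unchanged genes, against 16.8% with DESeq2 and 3.50% with limma-voom. Only 60, 64 and 59 tested genes had these changes, and no GC-linked difference between libraries was put in. The data differ in both respects, with 72.8% of tested genes past the threshold, so these rates may not hold for them.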

Additional observations from a re-analysis of the deposited data

Results flagged for a closer look

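Of 84 groups of 6 values examined for a single library far from the rest, 5 were picked out, and about 1 in 20 would be by chance. None of the 18 groups of the members was among them. HP-AKI 8 was the highest of its group for Mtfr2, at 9.99 CPM against 4.61 to 6.21 CPM in the others, and for Marchf5, at 129 CPM against 89.9 to 102 CPM, and the lowest for Bag5, at 24.1 CPM against 27.8 to 29.7 CPM. HP-AKI 13 was the highest for Mtfp1, at 2.27 CPM against 1.59 to 1.81 CPM. HP-AKI 9 was the highest for Timm23, at 44.0 CPM against 37.9 to 40.1 CPM.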

How the results depend on the processing

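Under 21 alternatives 1 member rose throughout, and 7 fell except with library size only, where 6 did because Fis1 no longer passed. No member that had passed changed direction. Calls over all genes ran from 5761 to 7546 higher and from 5402 to 7087 lower. The all-gene median was 0.16 with library size only, against 0.04 under TMM, -0.01 with upper-quartile factors and 0.02 to 0.05 when leaving out each library, and small changes hold relative to that shift. Of the related lists, the count of rises moved past 1.5 times as follows. With library size only it became 2 for fusion and cristae partners (from 1), 4 for PINK1 pathway regulators (from 2) and 2 for the content comparators (from 1). It became 5 (from 9) for mitophagy receptors with upper-quartile factors or no filter, and 5 to 7 when leaving out each library. For the content comparators it became 0 with RLE or upper-quartile factors, no filter or DESeq2, 2 without sham 1, sham 2 and HP-AKI 8 or with GC offsets, and 0 to 2 when leaving out each library. The Bnip3l to Bnip3 ratio differed by 0.21 to 0.31 when leaving out each library, and without sham 1, sham 2 and HP-AKI 8 by 0.25 (adjusted p 0.0833, no longer past the threshold), while the Mfn1 to Mfn2 ratio then passed at 0.38. Leaving out each library gave 0.20 to 0.35 for the latter. With libraries left out, both ratio tests ran over fewer splits. The cause of these shifts was not tested. No paired analysis was possible because the groups share no sample numbers. Depth did not limit the members, the rarest of which had 6541 counts in HP-AKI.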
